A study of Homo sapiens with 9 samples.

Results

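The genes described here are 40 genes of ribosome production and of the MYC network. They comprise 5 DNA-binding partners and competitors of MYC, 6 factors of RNA polymerase I, 7 proteins of the small nucleolar ribonucleoproteins (snoRNPs), 8 assembly factors of the small and 8 of the large ribosomal subunit, 3 other nucleolar proteins and 3 metabolic MYC targets. They were listed by symbol, with no threshold on a measured value, and each of the 40 was found once among the 57733 genes of every deposited table. All 40 passed the filter on low counts, although PPAN did so with only 7 to 49 reads per library. Nascent RNA was measured in PANC-1, a pancreatic ductal carcinoma cell line: in KO C28 and KO C22, each a single clone in which CRISPR/Cas9 was aimed at the histone demethylase gene KDM6A, and in WT, a PANC-1 control line that carried no guide RNA. All cells received 2 mM bromouridine for 30 min and were collected with no chase, and Bru-seq sequences the RNA labelled in that time. For BruUV-seq the cells were also exposed to UV light, at a dose of 100 J/m2. Each line has 1 BruUV-seq and 2 Bru-seq libraries, 9 in all, and nothing in the labels says that replicates were separate cultures, so a p-value covers the spread among these libraries alone, which may be technical.

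As background, MYC binds DNA as a dimer with MAX at E-boxes and is known for driving genes of ribosome production and of nucleotide and polyamine synthesis, while the MXD proteins, MXI1 and MNT compete for MAX and repress. Ribosomes are built in the nucleolus, where polymerase I transcribes the ribosomal RNA precursor, snoRNPs guide its modification, and assembly factors fold and cut it into the small and large subunits. UV lesions stop elongating polymerases, so after irradiation labelled RNA gathers near gene starts and is lost from the far ends of long genes.

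The core promoters of 5 members are shown because they carry the sites that the MYC and MAX dimer is known to prefer in genes that recur in the results below. Sequences are from RefSeq on GRCh38.p14, each from 250 bases before to 50 bases after the annotated start, written 5′ to 3′ on the gene's strand, and the capitals mark CACGTG (the canonical E-box, its own reverse complement) or the variant CACGCG, which reads CGCGTG on the other strand.
FBL (chr19:39846330-39846629, minus strand): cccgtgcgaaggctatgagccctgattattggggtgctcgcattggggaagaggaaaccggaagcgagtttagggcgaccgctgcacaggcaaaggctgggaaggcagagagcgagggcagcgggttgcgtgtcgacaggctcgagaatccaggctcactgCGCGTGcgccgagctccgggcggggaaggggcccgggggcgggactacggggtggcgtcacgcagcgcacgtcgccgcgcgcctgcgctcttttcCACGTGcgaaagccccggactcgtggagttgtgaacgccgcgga
UBTF (chr17:44220833-44221132, minus strand): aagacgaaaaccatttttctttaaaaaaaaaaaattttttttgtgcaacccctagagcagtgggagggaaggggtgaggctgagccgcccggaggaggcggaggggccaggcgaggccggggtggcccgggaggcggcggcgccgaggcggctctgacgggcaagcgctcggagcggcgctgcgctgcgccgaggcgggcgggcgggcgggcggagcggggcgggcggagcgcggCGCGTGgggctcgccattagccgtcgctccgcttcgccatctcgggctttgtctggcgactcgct
SRM (chr1:11059969-11060268, minus strand): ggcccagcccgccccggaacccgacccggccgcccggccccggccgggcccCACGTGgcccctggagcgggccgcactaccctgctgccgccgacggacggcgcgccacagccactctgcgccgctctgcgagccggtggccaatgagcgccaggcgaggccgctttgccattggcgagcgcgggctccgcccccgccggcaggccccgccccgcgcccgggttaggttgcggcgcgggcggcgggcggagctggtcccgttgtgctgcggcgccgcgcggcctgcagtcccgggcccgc
RRP9 (chr3:51941855-51942154, minus strand): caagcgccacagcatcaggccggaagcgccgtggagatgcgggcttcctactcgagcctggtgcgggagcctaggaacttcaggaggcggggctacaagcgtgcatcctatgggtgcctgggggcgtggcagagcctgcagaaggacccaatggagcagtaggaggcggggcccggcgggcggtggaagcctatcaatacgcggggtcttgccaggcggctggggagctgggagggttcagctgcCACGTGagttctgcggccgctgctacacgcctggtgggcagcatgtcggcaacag
MXD4 (chr4:2262060-2262359, minus strand): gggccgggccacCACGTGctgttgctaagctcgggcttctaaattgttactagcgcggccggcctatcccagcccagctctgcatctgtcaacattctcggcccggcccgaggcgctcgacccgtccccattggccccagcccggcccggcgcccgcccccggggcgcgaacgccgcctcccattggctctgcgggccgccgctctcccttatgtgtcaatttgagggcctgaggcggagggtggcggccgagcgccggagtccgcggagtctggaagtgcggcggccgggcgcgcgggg

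FBL holds both kinds of site, SRM, RRP9 and MXD4 hold the canonical E-box, and UBTF holds only the variant. Promoters were matched by symbol for 35 members, all but NOP58, NOLC1, BOP1, RRP12 and RRS1. CACGTG was present in 12 of the 35 (34.3%), against 7.43% of 27305 promoters of the same length. These 12 were MXD4, MNT, FBL, NOP2, PES1, RRP9, UTP20, UTP4, WDR43, NAT10, SRM and BYSL. CACGCG was present, on either strand, in 9 of the 35 (25.7%), against 11.4% of all promoters. A match is a string of letters in this window and not a measured binding site.

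Estimated reads in genes ranged from 14.4 to 31.1 M reads in 8 libraries and were 5.64 M in Bru-seq KO C28 replicate 2, which also had 46.5% of its reads outside genes (9.93% to 20% in the others) and correlated across genes at 0.609 to 0.719 with the other libraries. Values without that library are given for some of the members and some of the medians over all members. Medians by role, by promoter site and over lists of other genes are given only with it. KDM6A itself had 201 CPM (counts scaled to a common library size) in BruUV-seq KO C28, 125 CPM in KO C22 and 203 CPM in WT. In Bru-seq KDM6A had 337 and 65.9 CPM in KO C28, 287 and 427 CPM in KO C22, and 322 and 276 CPM in WT, and reads over a whole gene do not show whether its reading frame is intact. The 6 markers of PANC-1 cells (KRT7, KRT8, KRT18, KRT19, VIM and CD44) were detected in every library and summed to 4919 to 11367 CPM. In KO C28 against WT, 5 of these 6 had a log2 fold change above 0, with a median of 1.77 in Bru-seq and 1.74 over both assays, and against KO C22 the median over both assays was 2.10; none passed edgeR's test after adjustment. The 3 keratins KRT8, KRT18 and KRT19 had 766, 671 and 597 CPM in Bru-seq KO C28 replicate 2, against 112, 59.5 and 135 CPM in replicate 1. All 6 markers summed to 5151 CPM in replicate 2 and 4919 CPM in replicate 1, so KRT7, VIM and CD44 together were lower in replicate 2. The part of these shifts in the members' KO C28 values was not tested. The 12 markers of blood, vessel, liver, pancreatic and fibroblast cells summed to 3.85 to 40.4 CPM.

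Per unit of length, FBL, NCL and TAF1D had the highest mean levels of the members in each line. In Bru-seq, FBL, the methyltransferase of box C/D snoRNPs, averaged 55.1 ± 12 RPKM (the authors' reads per kilobase of gene, scaled to library depth) in KO C28, 33.7 ± 5.57 RPKM in KO C22 and 45 ± 8.54 RPKM in WT (SD, n = 2 each). NCL, the abundant nucleolar protein nucleolin, averaged 53.9 ± 30.2 RPKM in KO C28, 39.7 ± 27.4 RPKM in KO C22 and 33.6 ± 17.2 RPKM in WT. TAF1D, a subunit of the polymerase I selectivity factor SL1, averaged 18.6 ± 18.1 RPKM in KO C28, 21.4 ± 10.3 RPKM in KO C22 and 39.2 ± 12.9 RPKM in WT. FBL and NCL differ by less than the SD of NCL in each line, so their order is not settled. TAF1D had less than FBL in both KO C28 libraries, at 31.4 and 5.8 RPKM against 46.6 and 63.6 RPKM. NPM1, the histone chaperone nucleophosmin, followed with 15.8 ± 6.71 RPKM in KO C28, 14.2 ± 4.25 RPKM in KO C22 and 20.2 ± 3.64 RPKM in WT. In KO C28 the means of TAF1D, NPM1 and NOP56 (15.4 ± 2.83 RPKM) are not separated by their SDs. In WT, 99.8% of the genes tested had a lower level than FBL and 99.2% a lower level than NPM1. The lowest members per length in WT were MXD4 with 0.259 ± 0.123 RPKM and MAX with 0.482 ± 0.105 RPKM, and 37% and 48% of the genes tested lay below them.

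**Figure D1:**
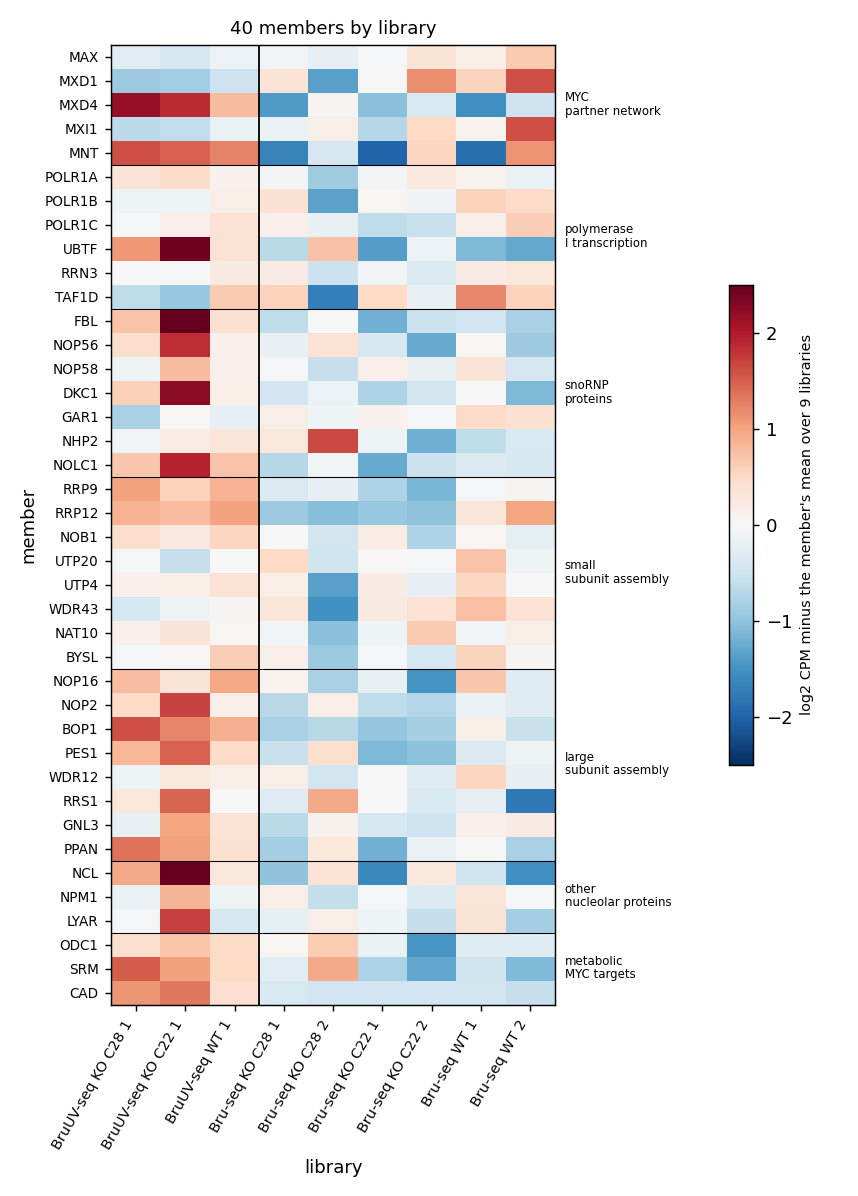
Log2 CPM of the 40 members in each of the 9 libraries, minus the member's mean over the libraries (colour; red is higher, blue lower), with members in rows by role and the 3 BruUV-seq libraries left of the vertical line. NCL, FBL, UBTF and DKC1 stand out in BruUV-seq KO C22, and RRP12 is lower in all 4 Bru-seq libraries of the knockout clones than in both of WT.

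In KO C28 against WT, more members lay below WT than above it in Bru-seq, and none passed the test. With the 6 Bru-seq libraries fitted together by edgeR's quasi-likelihood test, 27 of the 40 members had a log2 fold change below 0, as did 52.7% of the 22827 genes tested. The members' median log2 fold change was -0.40, and that of all genes tested was -0.08. No member had an adjusted p under 0.05, against 0.00438% of genes tested, and 1 member (RRP12) had an unadjusted p under 0.05, against 6.28% of genes. Both KO C28 libraries lay below both WT libraries for 13 members (32.5%, against 19.3% of the 20819 genes tested with both assays): MAX, MXD1, GAR1, BOP1, RRP9, RRP12, WDR43, NAT10, POLR1B, POLR1C, RRN3, TAF1D and GNL3. Both lay above WT for 4 members (10%, against 17.4%), NHP2, UBTF, ODC1 and SRM. With KO C28 replicate 2 left out, the members' median was -0.19 with 9 members above 0 (13 with it), and the counts over both libraries cannot be made. The median was -0.67 with KO C28 replicate 1 left out, -0.13 with WT replicate 1 left out, and -0.04 when only genes averaging 100 counts or more were fitted. In bulk libraries, fewer cells that transcribe a gene and less RNA per cell cannot be told apart.

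In KO C22 against WT, too, most members lay below WT in Bru-seq and none passed. A log2 fold change below 0 was found for 33 of 40 members, against 46.5% of the genes tested, and the median was -0.38 over the members and 0.07 over all genes tested. By edgeR's quasi-likelihood test, no member had an adjusted p under 0.05 (0.00438% of genes tested did), and RRP12 alone had an unadjusted p under 0.05 (2.01% of genes did). Both KO C22 libraries lay below both WT libraries for 15 members (37.5%, against 16.7% of genes): NPM1, NOP2, GAR1, NOLC1, BOP1, PES1, RRP9, RRP12, WDR43, POLR1B, POLR1C, RRN3, TAF1D, GNL3 and BYSL. They lay above both WT libraries for 0 members, against 14.1% of genes. Without WT replicate 1 the median was -0.24 and 13 members lay above 0, against 7 with it. This comparison and that of KO C28 share the WT libraries, so the members found in both are not independent of each other.

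Between the clones the members lay about evenly on both sides of 0. In KO C28 against KO C22, 18 of 40 members had a Bru-seq log2 fold change below 0, against 50.4% of genes tested, and the median was 0.05 over the members and -0.01 over all genes. In edgeR's test 0 members had an adjusted p under 0.05 and 0 an unadjusted p under 0.05, against 0% and 3.27% of genes. Both KO C28 libraries lay above both KO C22 libraries for 8 members (20%, against 14.7% of genes), NOP56, NHP2, BOP1, PES1, RRP9, POLR1C, ODC1 and SRM, and below them for MAX alone (2.5%, against 18.7%). The median lay between -0.09 and 0.15 with 1 library left out at a time, and was 0.39 with only genes averaging 100 counts or more.

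Joining both assays in 1 fit of 9 libraries, with the assay as a covariate, also gave no call between lines, and the medians against WT were nearer to 0. In KO C28 against WT, 24 of 40 members lay below 0 (52.9% of 20819 genes did) with a median of -0.19, against -0.06 over all genes. In KO C22 against WT, 23 members lay below 0 (48.5% of genes did) with a median of -0.17, against 0.02 over all genes. In KO C28 against KO C22, 23 members lay below 0 (49.6% of genes did) with a median of -0.10, against 0.01 over all genes. By edgeR, 0 members had an adjusted p under 0.05 in each of these, where 0.125%, 0.178% and 0% of genes had one, and DESeq2 also called 0 members in each line comparison. An unadjusted p under 0.05 was reached by 3 members in KO C28 against WT (RRP12, SRM and UBTF), by 1 in KO C22 against WT (RRP12) and by 1 in KO C28 against KO C22 (SRM), against 10.5%, 5.86% and 5.71% of genes. Without BruUV-seq KO C22, 7 members lay above WT in KO C22 and the median was -0.34, without Bru-seq KO C22 replicate 2 it was -0.03, and without BruUV-seq WT -0.29. Without BruUV-seq WT the median of KO C28 against WT was -0.42, without BruUV-seq KO C28 -0.04, and without Bru-seq KO C28 replicate 2 -0.15 with 13 members above 0. For KO C28 against KO C22 the median was 0.16 without BruUV-seq KO C22, 0.14 without BruUV-seq KO C28 and 0.12 without Bru-seq KO C28 replicate 1.

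**Figure D2:**
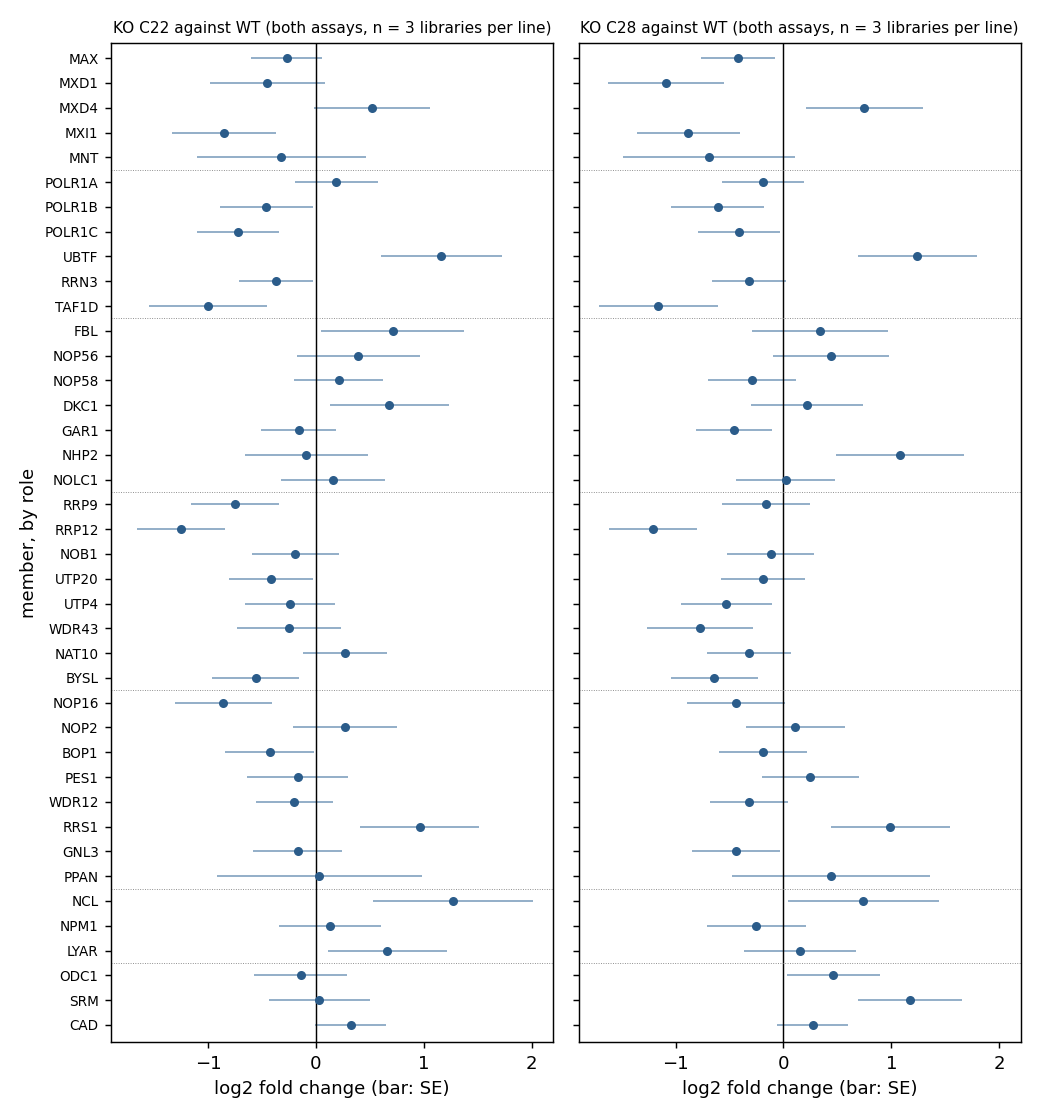
Log2 fold change of each of the 40 members in KO C22 against WT (left) and KO C28 against WT (right), from the fit of both assays; points are edgeR estimates, bars are standard errors, and members run by role. RRP12 (-1.25 and -1.21) is the lowest member in both panels, and UBTF (1.16 and 1.24) lies among the highest in both; none passed the test.

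Of the 5 partners and competitors of MYC, 4 had a log2 fold change below 0 against WT in each clone, and MXD4 lay above 0 in both. The medians of the 5 over both assays were -0.69 in KO C28 and -0.32 in KO C22. MYC itself had 135 CPM in KO C28, 92.2 CPM in KO C22 and 159 CPM in WT in BruUV-seq. In Bru-seq MYC had 59.5 and 37 CPM in KO C28, 55.6 and 37.5 CPM in KO C22, and 70.1 and 51.6 CPM in WT (replicates 1 and 2, here and below). Its levels in the clones overlapped those of WT in Bru-seq, with a log2 fold change over both assays of -0.30 (SE 0.36) in KO C28 and -0.51 (SE 0.36) in KO C22. The related genes had few reads: MYCN had 0 to 3 in each library, and MYCL had 39 reads (4.83 CPM) in KO C28 replicate 2 of Bru-seq and 0 to 15 reads in the other 8 libraries. MGA had a log2 fold change over both assays of -0.18 (SE 0.39) in KO C28 and 0.49 (SE 0.39) in KO C22, and MLX of -0.23 (SE 0.52) and -0.71 (SE 0.53).

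MAX, the obligate partner of MYC, had 34.6 CPM in KO C28, 31.3 CPM in KO C22 and 38 CPM in WT in BruUV-seq. In Bru-seq MAX had 39.8 and 36.2 CPM in KO C28, 40.7 and 53.3 CPM in KO C22, and 46.7 and 65.8 CPM in WT. Every KO C28 library therefore lay below the WT library or libraries of its assay, with a log2 fold change of -0.42 (SE 0.34) over both assays, which did not pass. MXD1 had 54.8 CPM in KO C28, 56.3 CPM in KO C22 and 71.7 CPM in WT in BruUV-seq. Its Bru-seq levels were 130.4 and 40.1 CPM in KO C28, 104 and 229.9 CPM in KO C22, and 153 and 317 CPM in WT. The 3 KO C28 values are below WT in each assay, with a log2 fold change of -1.09 (SE 0.54; edgeR adjusted p = 0.509), and the KO C28 replicates stand further apart than the nearest KO C28 and WT libraries do. Without KO C28 replicate 2 the log2 fold change of MXD1 was -0.65.

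MXI1 had 16.8 CPM in KO C28, 17.3 CPM in KO C22 and 23.7 CPM in WT in BruUV-seq, and 23.6 and 29.4 CPM in KO C28, 16.2 and 37.3 CPM in KO C22, and 28.2 and 81.8 CPM in WT in Bru-seq. WT replicate 2 stands above the other 5 Bru-seq libraries. MXD4, another repressor, had 41.3 CPM in KO C28, 33 CPM in KO C22 and 15.7 CPM in WT in BruUV-seq. Its Bru-seq levels were 3.32 and 9.42 CPM in KO C28, 4.32 and 6.88 CPM in KO C22, and 3.02 and 6.27 CPM in WT. Both clones exceeded WT only in BruUV-seq, where no replicate exists, and the Bru-seq groups overlapped. MNT, a MAX partner found in most cells, had 45.4 CPM in KO C28, 41.6 CPM in KO C22 and 35.1 CPM in WT in BruUV-seq, and 4.59 and 11.2 CPM in KO C28, 3.62 and 21.6 CPM in KO C22, and 3.94 and 32.6 CPM in WT in Bru-seq. The replicates of each line lie far apart for MNT, and the 3 pairs overlap.

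Of the 6 polymerase I factors, 5 had a log2 fold change below 0 over both assays in KO C28 against WT (median -0.37) and 4 in KO C22 against WT (median -0.42), and UBTF lay at the other end. UBTF, which binds the ribosomal DNA repeats and helps to recruit polymerase I, had 120.3 CPM in KO C28, 305 CPM in KO C22 and 72.6 CPM in WT in BruUV-seq. In Bru-seq UBTF had 35.4 and 94.3 CPM in KO C28, 21.6 and 51 CPM in KO C22, and 26 and 23.2 CPM in WT. Both KO C28 libraries exceeded both of WT, whereas the KO C22 pair lies on either side of them. The log2 fold change over both assays was 1.24 (SE 0.55; edgeR adjusted p = 0.478) in KO C28 and 1.16 (SE 0.56; edgeR adjusted p = 0.885) in KO C22, and over 15 alternatives it ran from 0.50 (in KO C28 without Bru-seq KO C28 replicate 2) to 1.86 and, in KO C22, from 0.44 to 1.62.

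TAF1D had 102 CPM in KO C28, 82.7 CPM in KO C22 and 249 CPM in WT in BruUV-seq. Its Bru-seq levels were 235 and 48.3 CPM in KO C28, 226 and 139 CPM in KO C22, and 367 and 235 CPM in WT. Every library of both clones lay below WT in its assay, although KO C28 replicate 1 and the lower WT library are equal as rounded. Over both assays the log2 fold change in KO C28 was -1.16 (SE 0.55; edgeR adjusted p = 0.489; -0.75 without KO C28 replicate 2), and in KO C22 it ran from -1.32 to -0.78 over 15 alternatives (edgeR adjusted p = 0.96 in the fit of all 9 libraries). POLR1A, the largest polymerase I subunit, had 199 CPM in KO C28, 219.6 CPM in KO C22 and 172 CPM in WT in BruUV-seq, and 153 and 85.9 CPM in KO C28, 152 and 189.6 CPM in KO C22, and 171 and 143 CPM in WT in Bru-seq. The WT pair overlaps the pairs of both clones. POLR1B, the second largest subunit, had 38.1 CPM in KO C28, 38.8 CPM in KO C22 and 47 CPM in WT in BruUV-seq, and 54.5 and 16.4 CPM in KO C28, 43.2 and 38.9 CPM in KO C22, and 62.1 and 58.3 CPM in WT in Bru-seq. POLR1B was below WT in every library of both clones, with a log2 fold change of -0.61 (SE 0.43; -0.23 without KO C28 replicate 2) in KO C28 and -0.46 (SE 0.43) in KO C22.

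POLR1C, a subunit shared by polymerases I and III, had 22.7 CPM in KO C28, 26.1 CPM in KO C22 and 29.9 CPM in WT in BruUV-seq, and 25.2 and 20.3 CPM in KO C28, 14.8 and 15.7 CPM in KO C22, and 25.6 and 35.3 CPM in WT in Bru-seq. Its KO C22 pair was the lowest of the 3 pairs, with a Bru-seq log2 fold change of -1.03 (SE 0.61) that did not pass. RRN3, the initiation factor that joins polymerase I to its promoter, had a log2 fold change over both assays of -0.32 (SE 0.34) in KO C28 and -0.37 (SE 0.34) in KO C22. RRN3 lies wholly under PDXDC1 on the opposite strand and has 3 pseudogenes with 775 mean reads in all, against 1441 of its own, so its values are uncertain.

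The 7 snoRNP proteins, whose complexes guide methylation (FBL, NOP56, NOP58) and pseudouridylation (DKC1, GAR1, NHP2) of ribosomal RNA, had medians of 0.22 in KO C28 and 0.21 in KO C22 against WT over both assays. In Bru-seq alone all 7 lay below 0 in KO C22 (median -0.21), and 3 of 7 did in KO C28 (median 0.05), so the KO C22 median turned its sign with the BruUV-seq libraries added. FBL had 1664 CPM in KO C28, 5941 CPM in KO C22 and 1328 CPM in WT in BruUV-seq. Its Bru-seq levels were 654 and 994 CPM in KO C28, 439 and 696 CPM in KO C22, and 725 and 571 CPM in WT. The BruUV-seq KO C22 library is far above the rest, while the 3 Bru-seq pairs overlap. NHP2 had 13.3 CPM in KO C28, 15.9 CPM in KO C22 and 17.2 CPM in WT in BruUV-seq, and 17 and 44.1 CPM in KO C28, 12.8 and 5.9 CPM in KO C22, and 8.97 and 10.6 CPM in WT in Bru-seq. The highest value of NHP2 belongs to KO C28 replicate 2, and its log2 fold change against WT over both assays was 1.08 (SE 0.59; edgeR adjusted p = 0.541) and 0.31 without that library. NOP56, NOP58, DKC1, GAR1 and NOLC1, a chaperone of snoRNPs, had log2 fold changes over both assays between -0.46 and 0.44 in KO C28 and between -0.16 and 0.68 in KO C22.

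The 8 assembly factors of the small subunit all had a log2 fold change below 0 in KO C28 against WT, and 7 did in KO C22, over both assays. The medians were -0.43 and -0.34, and 52.9% and 48.5% of all genes tested lay below 0. In KO C28 the sign of NOB1, UTP20 and RRP9 was not stable, as their values reached 0.07, 0.07 and 0.08 over 15 alternatives. RRP12, needed for maturation and export of the small subunit, had 104 CPM in KO C28, 97.4 CPM in KO C22 and 115 CPM in WT in BruUV-seq. In Bru-seq RRP12 had 30.4 and 27.4 CPM in KO C28, 29.5 and 28.3 CPM in KO C22, and 70.7 and 112 CPM in WT. The 4 Bru-seq libraries of the clones lie close together, between 27.4 and 30.4 CPM, and below both WT libraries, while the 3 BruUV-seq libraries differ by little. The Bru-seq log2 fold change was -1.75 (SE 0.58; edgeR adjusted p = 0.728, unadjusted 0.011) in KO C28 and -1.69 (SE 0.57; edgeR adjusted p = 1, unadjusted 0.013) in KO C22. Over the alternatives it ran from -2.10 to -1.33 in KO C28 and from -2.03 to -1.29 in KO C22, with adjusted p of at least 0.142 and 0.537.

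NAT10, which acetylates the small subunit's RNA, had 97.4 CPM in KO C28, 113 CPM in KO C22 and 93.6 CPM in WT in BruUV-seq, and 85.7 and 43.2 CPM in KO C28, 83.4 and 141 CPM in KO C22, and 86.3 and 99.7 CPM in WT in Bru-seq. The KO C28 and KO C22 pairs of NAT10 overlap. RRP9, a protein of the U3 snoRNP, had a log2 fold change over both assays of -0.16 (SE 0.41) in KO C28 and -0.75 (SE 0.41) in KO C22. The remaining factors, NOB1, UTP20, UTP4, WDR43 and BYSL, ranged from -0.77 (WDR43; -0.38 without KO C28 replicate 2) to -0.12 (NOB1) in KO C28 and from -0.56 (BYSL) to -0.19 (NOB1) in KO C22. NOB1 makes the final cut of the small subunit's RNA, and UTP20, UTP4 and WDR43 belong to the processome that assembles on the nascent precursor.

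The 8 assembly factors of the large subunit split evenly in KO C28 against WT (4 below 0, median -0.04) and had 5 of 8 below 0 in KO C22 (median -0.17) over both assays. In Bru-seq alone 7 of 8 lay below 0 in KO C22 (median -0.57) and 5 of 8 in KO C28 (median -0.24). BOP1, which with PES1 and WDR12 forms the PeBoW complex, had 60.8 CPM in KO C28, 46.8 CPM in KO C22 and 37 CPM in WT in BruUV-seq, and 11.3 and 12.3 CPM in KO C28, 10.2 and 11.1 CPM in KO C22, and 22.2 and 13.6 CPM in WT in Bru-seq. In Bru-seq all 4 libraries of the clones were below both of WT, and in BruUV-seq both clones were above it. RRS1, a factor for the 5S ribonucleoprotein, had 26.3 CPM in KO C28, 59.1 CPM in KO C22 and 21.4 CPM in WT in BruUV-seq, and 17.1 and 41.9 CPM in KO C28, 21.7 and 16.5 CPM in KO C22, and 18.7 and 6.15 CPM in WT in Bru-seq. Its log2 fold change of 0.99 (SE 0.55) in KO C28 and 0.96 (SE 0.55) in KO C22 over both assays rests on pairs that overlap in Bru-seq, and in KO C28 the log2 fold change of RRS1 was 0.34 without replicate 2. NOP16 had 53.5 CPM in KO C28, 39.8 CPM in KO C22 and 61.5 CPM in WT in BruUV-seq, and 33.6 and 17.8 CPM in KO C28, 27.7 and 11.1 CPM in KO C22, and 50.5 and 25.2 CPM in WT in Bru-seq. NOP16 had its highest value in WT in both assays, with a log2 fold change of -0.44 (SE 0.45) in KO C28 and -0.86 (SE 0.45) in KO C22 over both assays.

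NOP2 (a methyltransferase of the large subunit's RNA), PES1, WDR12 and GNL3 (the nucleolar GTPase nucleostemin) ranged from -0.44 to 0.25 in KO C28 and from -0.20 to 0.27 in KO C22, as log2 fold changes over both assays. In Bru-seq alone the KO C22 values against WT were -0.87 (SE 0.60) for PES1 and -0.67 (SE 0.56) for GNL3, and neither passed. PPAN was counted over only 0.292 kb of its gene, with 21 mean reads, and its log2 fold change of 0.44 (SE 0.92) in KO C28 and 0.03 (SE 0.95) in KO C22 is not informative at this depth.

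NCL, the multifunctional RNA-binding protein nucleolin, ran from 271 to 5555 CPM across the 9 libraries, the widest relative range of the members. It had 1594 CPM in KO C28, 5555 CPM in KO C22 and 1002 CPM in WT in BruUV-seq, and 411 and 1059 CPM in KO C28, 271 and 986 CPM in KO C22, and 586 and 284 CPM in WT in Bru-seq. The replicates of each line lie far apart and the 3 Bru-seq pairs overlap, so that the log2 fold change over both assays of 1.27 (SE 0.74; edgeR adjusted p = 0.975) in KO C22 and 0.74 (SE 0.70; edgeR adjusted p = 0.726) in KO C28 is within the spread. The KO C28 value of NCL was 0.06 without replicate 2. NPM1 had 472 CPM in KO C28, 955 CPM in KO C22 and 482 CPM in WT in BruUV-seq, and 579 and 347 CPM in KO C28, 511 and 416 CPM in KO C22, and 649.8 and 519 CPM in WT in Bru-seq. The NPM1 values of KO C22 are below WT in Bru-seq and above it in BruUV-seq. LYAR, a nucleolar protein of growing cells, had log2 fold changes over both assays of 0.15 (SE 0.52) in KO C28 and 0.66 (SE 0.55) in KO C22.

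Among the metabolic targets, the polyamine genes SRM and ODC1 had higher Bru-seq values in both KO C28 libraries than in both of KO C22, without passing the test, and CAD hardly varied in Bru-seq. SRM, spermidine synthase, had 40 CPM in KO C28, 28.5 CPM in KO C22 and 19.8 CPM in WT in BruUV-seq, and 11.5 and 27 CPM in KO C28, 8 and 5.59 CPM in KO C22, and 9.89 and 6.43 CPM in WT in Bru-seq. KO C28 was highest in each assay, with a log2 fold change over both assays of 1.17 (SE 0.48; edgeR adjusted p = 0.469) against WT and 1.15 (SE 0.48; edgeR adjusted p = 0.837) against KO C22. Without KO C28 replicate 2 both values of SRM were 0.67. ODC1, which makes putrescine in the first step of polyamine synthesis, had 104 CPM in KO C28, 129 CPM in KO C22 and 111 CPM in WT in BruUV-seq, and 82.2 and 122 CPM in KO C28, 70.4 and 28.8 CPM in KO C22, and 64.5 and 64.1 CPM in WT in Bru-seq. The KO C28 pair of ODC1 lies above the other 4 Bru-seq libraries, but its BruUV-seq library is the lowest of the 3, and the log2 fold change of ODC1 against WT over both assays was 0.46 (SE 0.43), or 0.14 without KO C28 replicate 2. CAD, the enzyme of the first steps of pyrimidine synthesis, had 112 CPM in KO C28, 131 CPM in KO C22 and 69.8 CPM in WT in BruUV-seq, and 40.1 and 37.3 CPM in KO C28, 37.1 and 37.3 CPM in KO C22, and 37.9 and 34.6 CPM in WT in Bru-seq. All 6 Bru-seq values of CAD lie between 34.6 and 40.1 CPM, with Bru-seq log2 fold changes of 0.01 (SE 0.54) in KO C28 and 0.02 (SE 0.54) in KO C22.

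**Figure D3:**
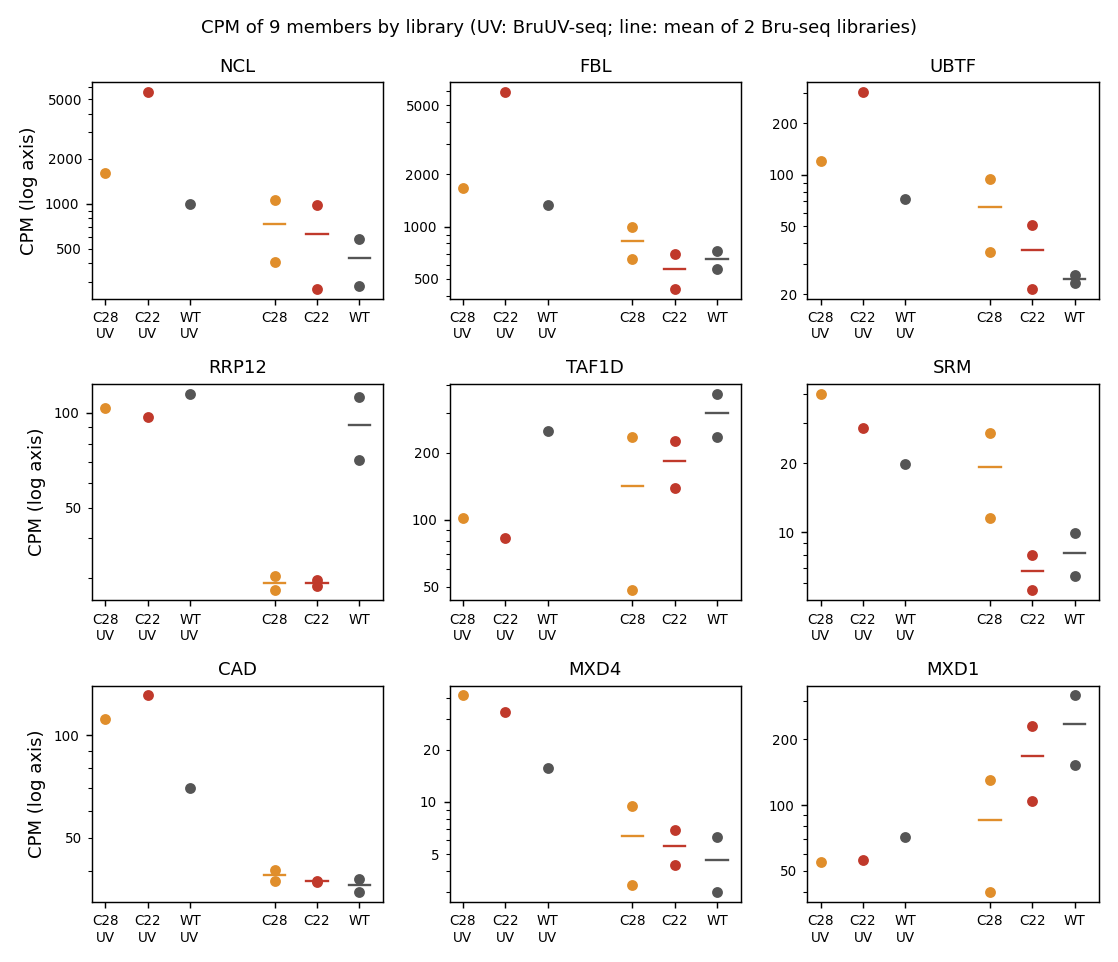
CPM (log axis) of 9 members in each library, with BruUV-seq at the left and Bru-seq at the right of each panel, in KO C28, KO C22 and WT; points are libraries and short lines the mean of 2 Bru-seq libraries. RRP12 shows 4 close points in the clones below the 70.7 and 112 CPM of WT in Bru-seq, and NCL and FBL reach 5555 and 5941 CPM in BruUV-seq KO C22.

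In BruUV-seq, which has 1 library per line and so no test between lines, more members lay over 2-fold from WT in KO C22 than in KO C28. Ratios were taken for the 11811 genes averaging 100 counts or more, among them 39 members (all but PPAN). KO C22 exceeded WT by more than 2-fold for 10 members (25.6%, against 11.8% of genes): NCL (5.54-fold), FBL (4.47-fold), DKC1 (4.34-fold), LYAR (4.32-fold), UBTF (4.19-fold), NOP56 (3.29-fold), NOP2 (2.85-fold), RRS1 (2.75-fold), NOLC1 (2.33-fold) and MXD4 (2.09-fold). TAF1D alone was more than 2-fold below WT (a ratio of 0.333; 2.56% of members, against 7.95% of genes). In KO C28 over WT, 2 members were more than 2-fold above, MXD4 (2.62-fold) and SRM (2.02-fold), which is 5.13% of members against 7.41% of genes, and TAF1D (0.41) was again the 1 below, 2.56% against 3.97%. NCL and FBL were 1.59-fold and 1.25-fold above WT in KO C28.

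The members that were high in BruUV-seq KO C22 tended to be those that were high in the shallow Bru-seq library of KO C28. KO C28 replicate 2 exceeded replicate 1 of the same clone by more than 2-fold for 7 members (17.9%, against 16.3% of genes), MXD4, MNT, NCL, NHP2, RRS1, UBTF and SRM, and fell short of it by more than 2-fold for 6 (15.4%, against 36.7%), MXD1, UTP4, WDR43, POLR1B, TAF1D and BYSL. Across the 39 members, the log2 ratio of KO C28 replicate 2 over replicate 1 and that of BruUV-seq KO C22 over WT had a Spearman correlation of 0.65, and across all 11811 genes one of 0.40; genes within a library share its depth and composition and are not independent replicates. Markers of other cells were also highest in these libraries: the 12 summed to 40.4 CPM in BruUV-seq KO C22, with 6 of them at 0, and to 22.2 CPM in KO C28 and 7.88 CPM in WT. In Bru-seq they summed to 27.8 CPM in KO C28 replicate 2 and to 3.85 to 11.5 CPM in the other 5 libraries, and INS was at 0 in every library. Whether other cells were present was not tested, nor was the part of depth and of reads outside genes in the members' values. BruUV-seq KO C22 had 14.4 M reads in genes and 9.93% of its reads outside genes. Bru-seq KO C28 replicate 2 had 5.64 M and 46.5%.

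**Figure D4:**
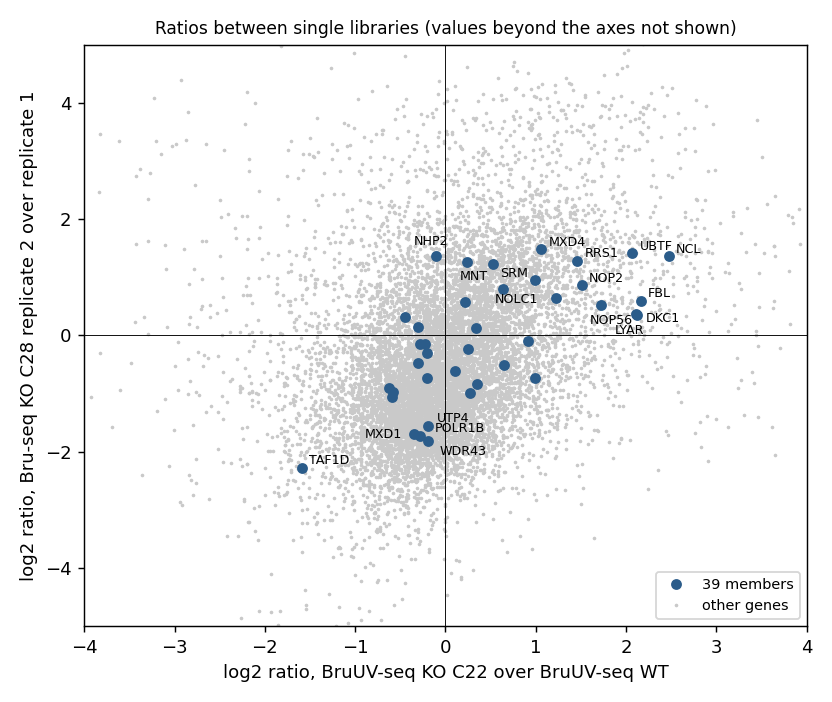
Log2 ratio of BruUV-seq KO C22 over BruUV-seq WT (horizontal) and of Bru-seq KO C28 replicate 2 over replicate 1 (vertical) for 39 members (blue) and other genes averaging 100 counts or more (grey). NCL, UBTF, RRS1 and MXD4 lie at the upper right and TAF1D at the lower left, and the Spearman correlation is 0.65 over the members and 0.40 over all 11811 genes.

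Most members took a larger share of the reads in BruUV-seq than in Bru-seq, and 1 of them passed the test. In BruUV-seq against Bru-seq, with line as a covariate, 32 of 40 members had a log2 fold change above 0 and 8 below, against 50.9% of genes below 0, and the median was 0.65 over the members and -0.03 over all genes. BOP1 rose by edgeR's test (1 of 40, against 0.447% of genes), with a log2 fold change of 1.89 (SE 0.34; edgeR adjusted p = 0.0452): 37 to 60.8 CPM in the 3 BruUV-seq libraries, against 10.2 to 22.2 CPM in the 6 Bru-seq libraries. An unadjusted p under 0.05 was reached by 17 members, against 25% of genes. All 3 BruUV-seq libraries exceeded all 6 of Bru-seq for 11 members (27.5%, against 10.1% of genes), MXD4, MNT, FBL, DKC1, NOLC1, BOP1, PES1, RRP9, NOB1, CAD and PPAN, and lay below all 6 for 0 members (2.92% of genes). The adjusted p of BOP1 ranged from 0.000574 to 0.44 over 15 alternatives, and it was lost without any 1 of Bru-seq WT replicate 1, WT replicate 2, KO C22 replicate 1, KO C28 replicate 1 or any BruUV-seq library. With that comparison's libraries less Bru-seq KO C28 replicate 2, 14 members passed (13 of them higher), as did 15% of genes. With Bru-seq KO C22 replicate 2 left out, 3 members passed, as did 2.14% of genes, and with BruUV-seq KO C22 left out the median was 0.42.

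The partners and competitors of MYC lay on both sides of 0 between the assays. MXD4 (log2 fold change 2.36, SE 0.45; edgeR adjusted p = 0.0502) and MNT (1.78, SE 0.67; edgeR adjusted p = 0.147) were higher in BruUV-seq without passing, and MXD1 (-1.28, SE 0.49; edgeR adjusted p = 0.151) and MXI1 (-0.82, SE 0.43; edgeR adjusted p = 0.246) were lower. MYC itself was higher by 1.29 (SE 0.30; edgeR adjusted p = 0.0633). By role, all 8 large subunit factors (median 1.09), all 3 metabolic targets (1.45) and all 3 other nucleolar proteins (0.70) lay above 0, as did 6 of 7 snoRNP proteins (1.26; GAR1 was -0.48), 6 of 8 small subunit factors (0.25) and 4 of 6 polymerase I factors (0.19). CAD (1.45, SE 0.28; edgeR adjusted p = 0.0506) had 69.8 to 131 CPM in BruUV-seq against 34.6 to 40.1 CPM in Bru-seq, with no overlap.

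The assay difference went with gene length, among members and other genes. Length here is the counted length, which is shorter than the gene for some members. It ran from 0.292 kb (PPAN, whose gene is 4876 bp wide) to 107 kb over the 40 members. The median was 15.7 kb, against 25.8 kb over all genes tested. The Spearman correlation of this length with the log2 fold change was -0.34 across members and -0.47 across all 20819 genes (across genes, which are not replicates). Among the 11 members of up to 10 kb the median was 0.81, against 0.63 for all genes of that length. The 11 members of 10 to 20 kb, FBL, NCL, UBTF, MXD4 and NOLC1 among them, all lay above 0 with a median of 1.70, against 0.43. The median was 0.30 for the 11 members of 20 to 40 kb, against 0.06, and -0.34 for the 7 longer members, against -0.60. RRP12 went against this order: at 68.9 kb it was higher in BruUV-seq by 1.37 (SE 0.34; edgeR adjusted p = 0.0759). That value comes mainly from the clones, since RRP12 had 115 CPM in BruUV-seq against 70.7 and 112 CPM in Bru-seq of WT. With an offset for length in the fit, the members' median was 0.37 and 3 members passed, all higher, as did 0.821% of genes.

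**Figure D5:**
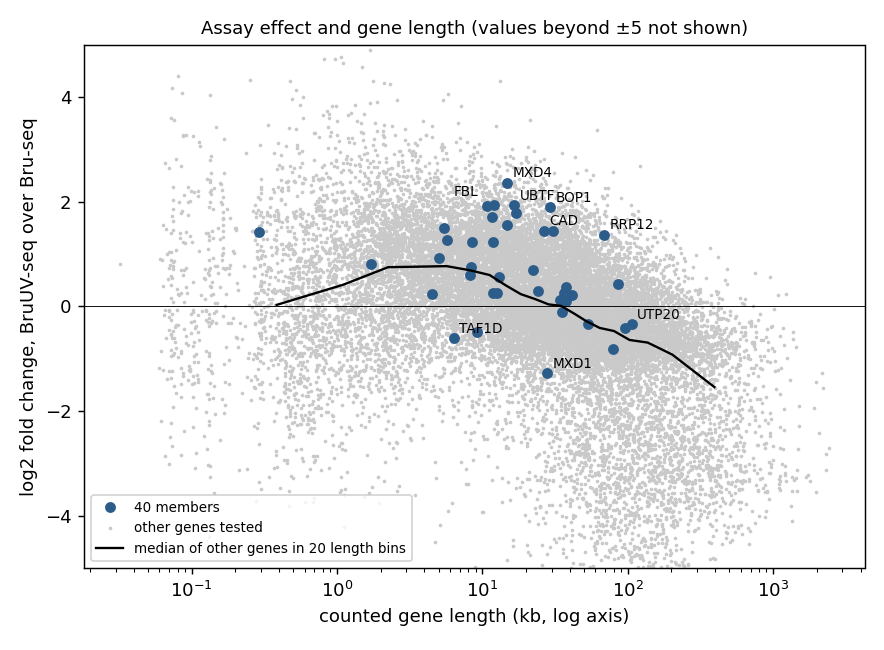
Log2 fold change of BruUV-seq over Bru-seq against counted gene length (kb, log axis) for the 40 members (blue) and the other genes tested (grey), with the median of the other genes in bins of length (line). Most members up to 40 kb lie above the line, with MXD4 (2.36) highest and MXD1 (-1.28) lowest, and UTP20, the longest, lies at -0.34.

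Other genes of the same pathways were counted from lists that do not include the members. All 92 other ribosome biogenesis factors were tested, and in Bru-seq 73 lay below 0 in KO C28 against WT (median -0.44) and 76 in KO C22 against WT (median -0.41), with 0 called by edgeR in either. Of all genes tested, 52.7% and 46.5% lay below 0 in these 2 Bru-seq comparisons. Over both assays 65 (median -0.26) and 56 (median -0.22) of the 92 lay below 0, against 52.9% and 48.5% of all genes tested. In Bru-seq, of 31 other polymerase I and III factors, 23 lay below 0 in KO C28 (median -0.25) and 23 in KO C22 (median -0.18). The 34 other commonly cited MYC targets tested had 22 above 0 in KO C28 (median 0.41) and 28 below 0 in KO C22 (median -0.36) in Bru-seq, with 0 called. Over both assays 22 lay above 0 in KO C28 (median 0.41) and 19 in KO C22 (median 0.02). In Bru-seq the 15 other MYC network genes tested had medians of -0.24 and -0.03, and the 8 other polyamine genes of -0.51 and -0.15, in KO C28 and KO C22 against WT. In BruUV-seq against Bru-seq, 56 of the 92 ribosome biogenesis factors lay above 0 (median 0.30) and 30 of the 34 MYC targets did (median 0.85), where 50.9% of all genes lay below 0. By edgeR's test 1 gene rose in each of 3 lists, of 92, 31 and 15 genes tested, where 0.447% of all genes were called in either direction. In that order they were FTSJ3, an rRNA precursor processing factor (log2 fold change 2.88, edgeR adjusted p = 0.0459), MYBBP1A, a nucleolar protein (2.09, edgeR adjusted p = 0.0353), and HCFC1, a chromatin cofactor (2.19, edgeR adjusted p = 0.0353).

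Members with and without the canonical E-box in the promoter window had similar medians between lines. In Bru-seq the 12 with CACGTG had medians of -0.36 in KO C28 and -0.33 in KO C22 against WT, and the 23 matched members without it -0.41 and -0.38. In BruUV-seq against Bru-seq the medians were 1.24 and 0.42, which were not tested against each other. Neighbouring transcripts limit some of these values: MAX lies 58.5% under FNTB, POLR1C 57.8% under XPO5 and UBTF 69.5% under AC004596.1, all on the opposite strand, as do smaller parts of RRP12 (26.5%), PES1 (27.5%) and NHP2 (24.5%), and the sources used here do not say for every library whether counting kept strands apart. Of the members, 8 have 25 snoRNA genes within their bounds, which the tables list as genes of their own, and NPM1 has 43 pseudogenes with 119 mean reads in all, against 9975 of its own.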

How the data were processed

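Each library has 1 deposited table, in which the authors list for every gene an expected count, often fractional, and an RPKM. The units were read from the values. Per the submitters' processing notes, CASAVA 1.8.2, Bowtie2 2.3.3, STAR 2.5.3a and bedtools 2.16.2 were used, with builds hg38 and GRCh38 named; no annotation release is named in the sources used. Lines and assays were taken from the labels. Counts were rounded and fitted over all genes with edgeR 4.0.16 (R 4.3.3): filterByExpr by line (minimum count 10), TMM, the quasi-likelihood test, and adjusted p-values (Benjamini-Hochberg, all genes tested) at 0.05. The Bru-seq fit had 6 libraries and 22827 genes, and the fit of both assays 9 libraries, an assay term and 20819 genes. CPM used TMM factors of all 9 libraries, and single-library ratios a prior count of 2. The members, context lists, promoters shown and the fit of both assays were chosen with earlier results of these data known.

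Alternatives were RLE factors, DESeq2 1.42.0, no filter, a mean of at least 100 counts, a length offset, the replicate number as a block, each library left out, members lying mostly under a same-strand gene with more reads left out (there were 0) and, chosen after seeing the data, Bru-seq KO C28 replicate 2 and BruUV-seq KO C22 left out together. Counts of members above 0 under each alternative were also added after seeing the data. The fits were checked on simulated counts with known changes in genes averaging 100 counts or more. The simulation used the spread of these libraries and a smaller one. The share of changes recovered is not given here, and how small a difference in a given member could be detected was not tested. All members are named. Values per library are given for the partners and competitors of MYC, for NCL, NPM1, FBL, ODC1, CAD, POLR1A, POLR1B, POLR1C and UBTF, and for each member past the threshold. They are also given, in each line comparison of both assays, for the 3 highest and 3 lowest members with a mean of at least 100 counts.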

Additional observations from a re-analysis of the deposited data

How the results depend on the processing

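No member passed in any of the 6 line comparisons under any alternative run. The members' medians between lines shifted with single libraries (a line left with 1 Bru-seq library is assumed to vary like the others). With 1 library left out at a time, the median was -0.49 to -0.24 in KO C22 against WT in Bru-seq (5 to 13 members above 0), -0.67 to -0.13 in KO C28 against WT, and -0.09 to 0.15 in KO C28 against KO C22. With both assays it was -0.34 to -0.03 in KO C22 against WT (7 to 19 members above 0), -0.42 to -0.04 in KO C28 against WT (9 to 18) and -0.18 to 0.16 in KO C28 against KO C22 (14 to 28). In BruUV-seq against Bru-seq it was 0.42 to 0.91, with 0 to 14 members called.

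With only genes of at least 100 mean counts, the Bru-seq medians were -0.04 in KO C28 against WT and 0.39 in KO C28 against KO C22. With both assays that setting gave -0.04 and 0.13, and in BruUV-seq against Bru-seq 0.48 with 0 members called. Leaving out Bru-seq KO C28 replicate 2 and BruUV-seq KO C22 together gave -0.34 in KO C22 against WT (7 above 0), -0.08 in KO C28 against WT, 0.23 in KO C28 against KO C22 (29 above 0) and 0.43 in BruUV-seq against Bru-seq (0 called). In that assay comparison RLE factors called 0 members, DESeq2 13 (16.1% of genes), no filter on low counts 14 (5.74% of genes) and the length offset 3 (0.821% of genes) with a median of 0.37. The median over all genes there was -0.47 with DESeq2, -0.45 without a filter and 0.08 with the length offset, against -0.03. Apart from fewer genes or libraries, the cause was not tested. Deviations of same-numbered libraries correlated at 0.461 for KO C22 and WT, but at 0.038 for KO C28 and WT and -0.391 for KO C28 and KO C22, so the numbers were not taken to pair libraries. With the replicate block, the Bru-seq medians were -0.39 in KO C22 against WT, -0.41 in KO C28 against WT and 0.03 in KO C28 against KO C22, with 0 members called. Depth limits PPAN, with 7 to 49 reads, and the spread of 79.3% (biological coefficient of variation) in the Bru-seq fit limits every line comparison.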
